A study of Mus musculus with 36 samples.

Results

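Cell division genes were followed in the cerebellum and hippocampus of Pogz-deficient mice, to ask whether the cerebellar fall of Cdc20 was shared by other genes of mitosis and replication or stood by itself. The 39 genes were taken by symbol from the count tables, which list 24421 genes: Cdc20 and its partners at anaphase, the Aurora kinases and the chromosomal passenger complex, the spindle checkpoint, the outer kinetochore, mitotic kinesins, mitotic cyclins and kinases, the markers Mki67 and Top2a, and 8 replication genes. Of these, 24 passed the filter on low counts (over 1 CPM in at least 6 libraries, CPM being counts per gene scaled to library size) in the cerebellum and 28 in the hippocampus, 23 of them in both.

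RNA was sequenced from both tissues of the same 18 adult C57Bl/6 mice, 3 males and 3 females of each genotype. Control mice were Pogz fl/fl without Cre, with 2 intact alleles. Pogz cKO+/- mice (NesCre/+; Pogz fl/+) kept 1 intact allele and cKO-/- mice (NesCre/+; Pogz fl/fl) kept 0 in cells where Nestin-driven Cre had acted, which are those of the central and peripheral nervous system, so that vessels, meninges and blood keep Pogz. Controls carried no Cre, so that an effect of Cre itself and of the deletion cannot be told apart. Reads over the floxed exons of Pogz were pooled with those over its other exons. All changes below are log2 changes per allele lost, from a fit with sex as a term, and a gene is called at a Benjamini-Hochberg adjusted p under 0.05 over all genes tested by edgeR.

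Cdc20 activates the anaphase-promoting complex (APC/C), a ubiquitin ligase that marks securin and B-type cyclins for destruction so that chromatids part. The spindle checkpoint holds Cdc20 back until every kinetochore is attached, and the chromosomal passenger complex, with Aurora B as its kinase, corrects faulty attachments. In replication, the MCM helicase opens DNA and the PCNA clamp holds the polymerases. Most neurons of the adult brain no longer divide, while the dentate gyrus of the hippocampus keeps dividing progenitors, and Cdc20 with the APC/C also has described roles in the dendrites and synapses of neurons that have left the cell cycle. POGZ binds HP1 proteins and has been placed at the release of Aurora B from chromosome arms in dividing cells.

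Promoter sequences are shown for 4 of the 5 genes called in the cerebellum, as the table used here holds none for Incenp. Each is the 250 bases before the transcription start on the gene's strand, from RefSeq on GRCm38.p6: Cdc20 at chr4:118437344-118437593 (minus), Nuf2 at chr1:169531465-169531714 (minus), Mcm5 at chr8:75109259-75109508 (plus) and Mcm7 at chr5:138171884-138172133 (minus). Capitals mark matches, on either strand, to the cell cycle homology region (CHR, searched as TTTGAA or TTCGAA, the element the DREAM complex binds), to the CCAAT box that NF-Y binds, and to E2F sites (TTTCCCGC, TTTCGCGC, TTTGCCGC or TTTGGCGC).
Cdc20: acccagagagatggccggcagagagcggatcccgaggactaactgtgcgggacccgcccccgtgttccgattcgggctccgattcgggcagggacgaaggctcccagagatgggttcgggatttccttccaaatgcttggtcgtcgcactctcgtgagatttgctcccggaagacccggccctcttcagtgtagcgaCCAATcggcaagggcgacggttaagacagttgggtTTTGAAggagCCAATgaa
Nuf2: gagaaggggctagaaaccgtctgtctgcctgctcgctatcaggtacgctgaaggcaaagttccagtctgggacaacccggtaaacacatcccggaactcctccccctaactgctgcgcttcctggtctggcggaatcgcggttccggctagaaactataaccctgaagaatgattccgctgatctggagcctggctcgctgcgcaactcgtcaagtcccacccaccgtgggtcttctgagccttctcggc
Mcm5: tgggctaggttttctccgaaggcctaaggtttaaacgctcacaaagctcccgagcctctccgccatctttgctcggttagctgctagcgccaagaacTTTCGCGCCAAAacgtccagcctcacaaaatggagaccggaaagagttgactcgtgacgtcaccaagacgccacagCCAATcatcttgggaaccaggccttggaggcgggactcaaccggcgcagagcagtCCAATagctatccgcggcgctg
Mcm7: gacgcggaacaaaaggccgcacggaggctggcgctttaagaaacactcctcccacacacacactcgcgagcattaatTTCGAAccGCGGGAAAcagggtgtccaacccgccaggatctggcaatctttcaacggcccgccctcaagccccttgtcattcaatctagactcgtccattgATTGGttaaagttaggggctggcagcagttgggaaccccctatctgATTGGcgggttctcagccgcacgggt
In Cdc20 a CHR match lay 18 to 13 bases before the start, with CCAAT boxes 53 to 49 and 8 to 4 bases before it. Mcm7 held a CHR match 173 to 168 bases and an E2F match 165 to 158 bases before its start, and Mcm5 held a pair of overlapping E2F matches from 153 to 142 bases before its start. Both had CCAAT boxes nearer the start. Nuf2 held no match to any of the 3 motifs, and neither did Pttg1 and Mad2l1, which were tested in the cerebellum and not called. Ccnb2 and Mcm2, also not called, held CHR and CCAAT matches as Cdc20 did. Of the 33 genes in the group with a promoter in the table, 14 held a CHR match (42.4%, against 15.6% of all 17216 promoters), 26 a CCAAT box (78.8% against 35.9%) and 4 an E2F match (12.1% against 2.36%). The matches describe these windows and are not shown to be bound. No promoter was found for Tpx2, Aurkb, Incenp, Kif20a, Ccna2 and Mcm4.

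Library totals ran from 21421850 to 32544929 counts in the cerebellum and from 17609321 to 45544188 in the hippocampus, and 3 counts equal between 0.0659 and 0.170 CPM. Pogz, the targeted gene, fell in both tissues. In the cerebellum it went from 99.6 ± 15.2 CPM in controls to 77.7 ± 5.78 in cKO+/- and 65.8 ± 7.34 in cKO-/- mice (SD, n = 6 each, change -0.30, adjusted p = 0.000357), and in the hippocampus from 90.9 ± 1.24 to 61.7 ± 3.55 (SD, n = 6 and 5, change -0.28). Summed CPM of 8 cerebellar marker genes was 6200 to 10570 in cerebellar libraries and 149.6 to 591 in hippocampal ones, and that of 8 hippocampal markers was 577 to 1058 in hippocampal and 65.7 to 106 in cerebellar ones. Hippocampal values exclude the cKO-/- animal Sample_1160 unless all 18 libraries are named, as the study excluded 1 outlier sample without naming it and an earlier analysis of these data matched it to this one. In 3 cerebellar libraries (cKO+/- Sample_933 and Sample_1433 and cKO-/- Sample_936) choroid plexus markers summed to as much as 3172 CPM, against 20.6 to 27.6 CPM in controls. All controls lie between Sample_1120 and Sample_1219 in number, while 3 cKO+/- and 4 cKO-/- mice have numbers outside that range. Whether the numbers stand for litters or cohorts is not given.

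In the cerebellum, Cdc20 was lower with fewer Pogz alleles, Mcm5, Mcm7 and Incenp were lower by much less, and Nuf2 was higher. These 5 of 24 tested genes were called, 4 down and 1 up, against 13.7% of all 14027 genes tested. With a term for animals numbered outside the control range, Cdc20 alone was called. Calls over all 14027 genes fell from 1916 to 308 with that term. No control lies outside the range, so the term is partly tied to genotype. Cdc20 changed by -0.73 and each of the other 3 that fell by no more than 0.18 on the log2 scale. The median change was -0.041 over the 24 genes and -0.038 without Cdc20, against 0.00087 over all genes tested. Of the 24, 17 lay below 0 and 21 changed by less than 0.2 in either direction.

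Cdc20 was measured at 2.35 to 3.64 CPM in the 6 control cerebella, with a median of 3.14. In cKO+/- mice it ran from 1.30 to 2.02 CPM (median 1.63) and in cKO-/- mice from 0.917 to 1.26 CPM (median 1.16). Every library of both knockouts lay below every control, and every cKO-/- library lay below every cKO+/- library. Mean levels were 3.05 ± 0.534, 1.61 ± 0.269 and 1.11 ± 0.128 CPM (SD, n = 6 each), so that cKO+/- mice had 53.0% and cKO-/- mice 36.5% of the control level. These rest on 62 to 106 counts per control library, 36 to 65 in cKO+/- and 26 to 35 in cKO-/- mice.

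Per allele lost, Cdc20 changed by -0.73 ± 0.080 (SE, 95% interval -0.90 to -0.57, edgeR adjusted p = 9.03e-06), a change of -39.9%. Exact permutation tests (two-sided) of log2 CPM gave p = 0.00216 for each knockout against control, the smallest that 6 against 6 can give, and 0.00432 after adjustment over 4 tests. The cerebellar fall of Cdc20 was known from these same counts when the gene was chosen. These p-values therefore describe the fall and are no independent evidence of it, and the adjustment does not cover that choice. Mean levels in females were 3.07, 1.54 and 1.09 CPM in the 3 genotypes, and in males 3.02, 1.69 and 1.14 CPM (n = 3 each). It was called in all 29 alternative fits, with changes from -0.77 to -0.70. Among mice with numbers inside the control range, cKO+/- mice had 1.70 ± 0.332 CPM (SD, n = 3) and the 2 cKO-/- mice 0.999 and 1.16 CPM. In bulk tissue, fewer cells that express a gene and less of its RNA per cell cannot be told apart.

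**Figure D1:**
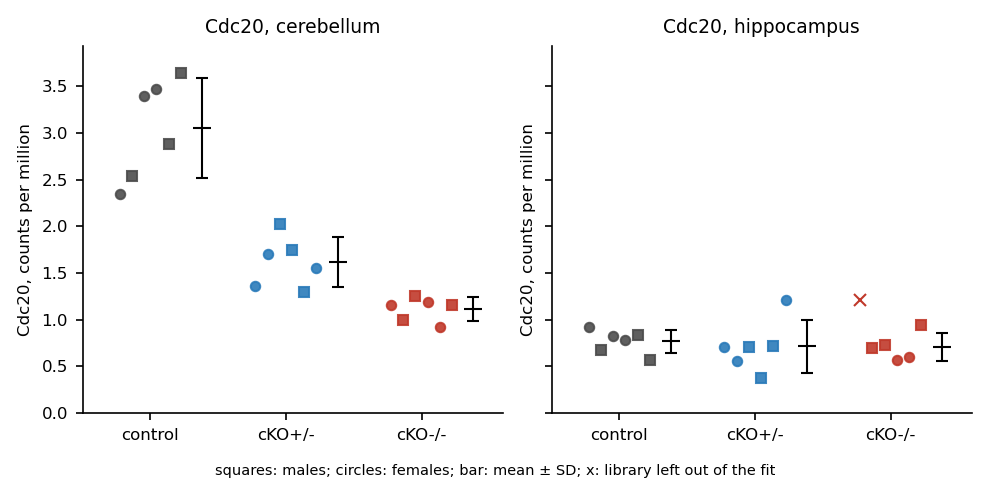
Cdc20 in CPM (vertical axis) for each library of control, cKO+/- and cKO-/- mice in the cerebellum (left) and hippocampus (right), with squares for males, circles for females, a bar for mean ± SD and a cross for the hippocampal library left out of the fit. In the cerebellum the 6 controls lie at 2.35 to 3.64 and all 12 knockouts at or below 2.02, while the groups overlap in the hippocampus, where controls lie at 0.570 to 0.920.

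Cdc20 lies on chromosome 4 (118432901 to 118437343, minus strand, as the files give it). Its exons share 52 bases, or 2.91% of their length, with Elovl1, a fatty acid elongase gene on the other strand. Without stated strand use, reads in that overlap cannot be told apart. Elovl1 changed by 0.04 in the cerebellum and was not called (adjusted p = 0.712). Of its neighbours within 50 kb, Med8 changed by -0.09 (adjusted p = 0.0794) and Tie1 by -0.11 (adjusted p = 0.238), neither called.

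Of the other genes grouped with Cdc20 at anaphase, Ube2c and Cdca5 were under the filter and are given below. Pttg1 and Espl1 were tested and not called. Pttg1 (securin) had 19.1 to 24.2 CPM in control and 17.8 to 29.7 CPM in cKO-/- cerebella (change 0.03, interval -0.09 to 0.16). Espl1 (separase) had 0.790 to 2.56 and 1.02 to 1.35 CPM (change -0.14, interval -0.41 to 0.13). Their groups overlapped. The 95% intervals of 22 of the 23 other tested genes lay wholly above that of Cdc20, and none held its value. The exception was Ccnb2 (cyclin B2), one of the cyclins destroyed through Cdc20, with 1.31, 1.97 and 3.49 CPM (lowest, median, highest) in controls, 0.9001, 1.29 and 1.64 in cKO+/- and 0.680, 1.66 and 2.28 in cKO-/- mice. Its change of -0.28 (interval -0.57 to 0.01) was not called (adjusted p = 0.185).

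**Figure D2:**
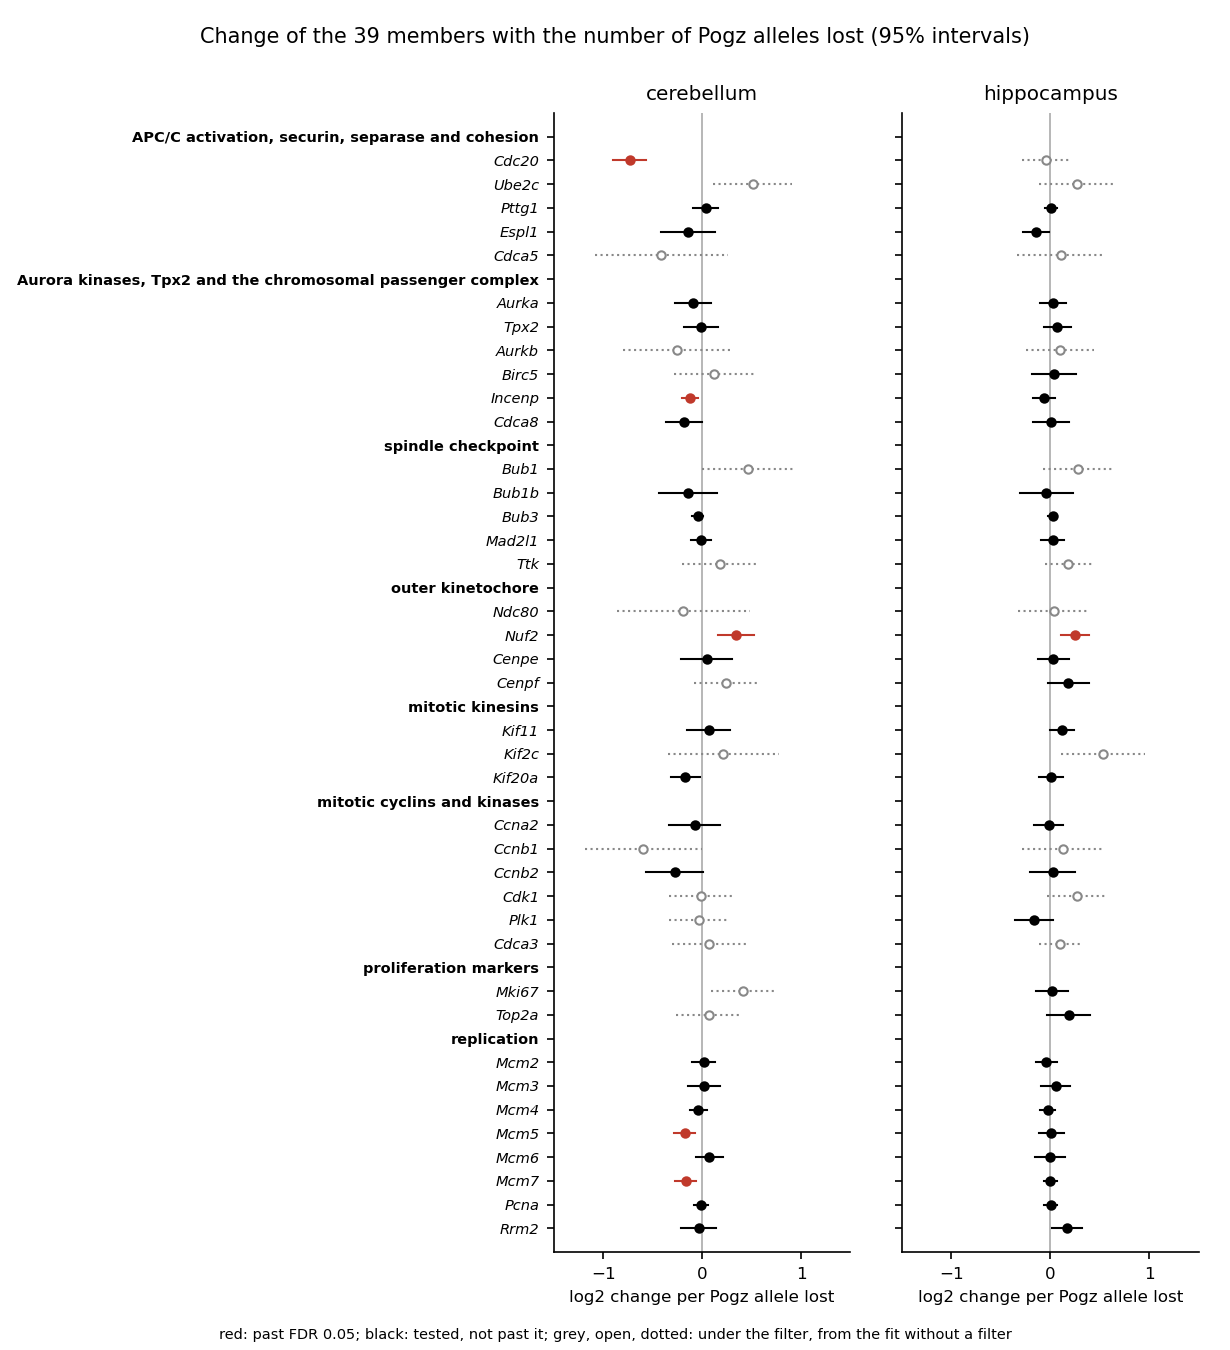
Log2 change per Pogz allele lost (horizontal axes) with 95% intervals for the 39 genes by role in the cerebellum (left) and hippocampus (right), red where called, black where tested and not called, and grey, open and dotted where a gene was under the filter and is shown from the fit without one. Cdc20 stands at -0.73 in the cerebellum and -0.04 in the hippocampus, and Nuf2 is the gene called in both, at 0.34 and 0.25.

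Nuf2 and its partner Ndc80 form the complex through which kinetochores hold microtubules. In control cerebella Nuf2 had 2.77 to 3.65 CPM (median 3.43). It had 2.46 to 5.27 CPM (median 3.84) in cKO+/- and 3.73 to 6.98 CPM (median 5.59) in cKO-/- mice. All cKO-/- libraries lay above all controls, and cKO+/- libraries overlapped both. The change was 0.34 ± 0.088 (SE, interval 0.16 to 0.52, adjusted p = 0.0169). Of the 24 tested genes, Cdc20 and Nuf2 were the 2 whose cKO-/- and control libraries did not overlap, against 4.58% of all genes tested. Within the control number range the 2 cKO-/- mice had 3.73 and 3.97 CPM, close to the highest control, and the 4 outside it 4.97 to 6.98 CPM. Nuf2 missed the threshold with a term for that range (0.24, adjusted p = 0.289), in mice within it (0.12, 0.442), with choroid plexus and brainstem scores as covariates (0.30, 0.0659) and without cKO-/- Sample_1385 (0.31, 0.0504). Ndc80 was under the filter, at no more than 11 counts in any library, and Cenpe, the kinetochore's motor, changed by 0.05 (adjusted p = 0.828).

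Mcm5 and Mcm7 are subunits of the replicative helicase. Mcm5 had 15.0 to 17.6 CPM (median 16.7) in control cerebella, 11.5 to 17.2 (median 13.6) in cKO+/- and 10.9 to 15.5 (median 12.6) in cKO-/- mice. Mcm7 had 15.8 to 22.7 CPM (median 19.4), 15.3 to 18.6 (median 17.998) and 13.1 to 19.0 (median 15.6). For both, most cKO-/- libraries were low while the ranges overlapped. Mcm5 changed by -0.18 ± 0.050 (SE, adjusted p = 0.0256) and Mcm7 by -0.17 ± 0.051 (SE, adjusted p = 0.0373).

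The other 4 subunits of the same hexamer lay near 0, with Mcm4 lowest at -0.04 (adjusted p = 0.560) and Mcm6 highest at 0.07 (adjusted p = 0.502), and so did Pcna at -0.01 and Rrm2, a subunit of ribonucleotide reductase, at -0.04. In the 2 cKO-/- mice within the control number range, Mcm5 was 14.5 and 15.5 CPM and Mcm7 17.2 and 19.0 CPM, inside or just below the control range, against 10.9 to 13.2 and 13.1 to 17.2 CPM in the 4 outside it. With a term for the number range the changes were -0.08 (adjusted p = 0.421) and -0.10 (0.402), and in mice within it -0.07 (0.459) and -0.07 (0.512). Mcm5 also missed the threshold without control Sample_1190 or cKO-/- Sample_936, Sample_1371 or Sample_1385 (adjusted p 0.0513 to 0.0692), and Mcm7 without control Sample_1129, Sample_1155, Sample_1172 or Sample_1190 or cKO-/- Sample_1371, Sample_1379 or Sample_1385 (0.0530 to 0.101).

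Incenp, the scaffold of the chromosomal passenger complex, had 15.3 to 18.8 CPM (median 16.5) in control cerebella, 14.9 to 16.8 (median 15.4) in cKO+/- and 12.4 to 15.8 (median 13.8) in cKO-/- mice. The highest cKO-/- libraries reached into the control range. The change was -0.12 ± 0.037 (SE, adjusted p = 0.0353), and it was not called without control Sample_1129, Sample_1190 or Sample_1192 or cKO-/- Sample_1371, Sample_1379 or Sample_1385 (adjusted p 0.0526 to 0.0942) or with the term for the number range (-0.11, 0.260). Cdca8 (borealin), its partner, changed by -0.18 (adjusted p = 0.164), Aurka by -0.09 and Tpx2, the activator of Aurora A, by -0.01, none called. Aurkb itself and Birc5 (survivin) were under the filter, at no more than 21 counts per library.

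**Figure D3:**
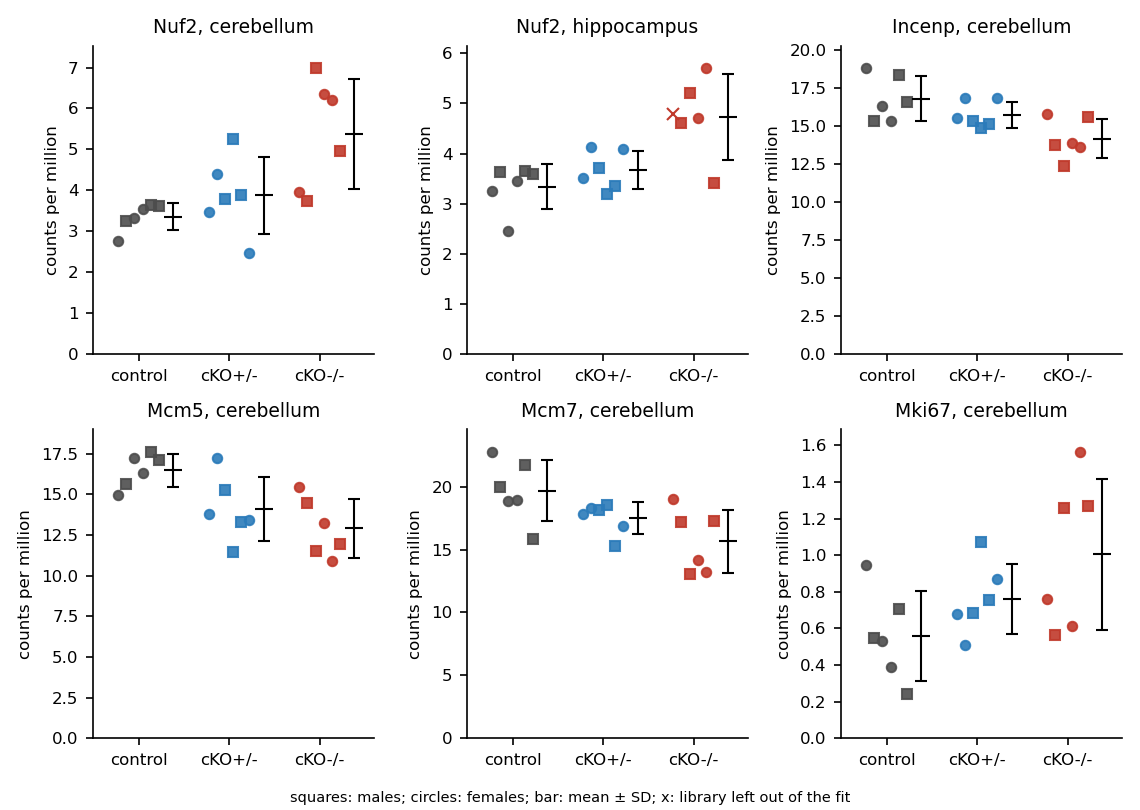
CPM (vertical axes) by library in control, cKO+/- and cKO-/- mice for Nuf2 in both tissues and for Incenp, Mcm5, Mcm7 and Mki67 in the cerebellum, with squares for males, circles for females, bars for mean ± SD and a cross for the library left out of the fit. Cerebellar Nuf2 is at 3.73 to 6.98 in cKO-/- mice and 2.77 to 3.65 in controls, while the ranges of Incenp, Mcm5, Mcm7 and Mki67 overlap between these groups.

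None of the 3 tested genes of the spindle checkpoint was called. Bub3 had 72.6 to 92.6 CPM in control and 73.5 to 82.1 CPM in cKO-/- cerebella (change -0.04, interval -0.10 to 0.01). Mad2l1, which binds Cdc20 in the checkpoint complex, had 5.76 to 7.89 and 5.72 to 8.19 CPM (change -0.01, interval -0.12 to 0.09), and Bub1b (BubR1), the other arm of that complex, changed by -0.14 (interval -0.43 to 0.15). By edgeR 0 of these 3 were called, against 13.7% of all genes tested, 0 had an unadjusted p under 0.05, and 0 were called by DESeq2. Among kinesins, Kif20a, which acts at cytokinesis, changed by -0.17 (adjusted p = 0.101) and Kif11, which pushes spindle poles apart, by 0.07 (adjusted p = 0.713). Kif20a shares 28.6% of its exon bases with Cdc23 on the other strand, and Ccna2 (cyclin A2, change -0.07, adjusted p = 0.726) shares 13.4% with Exosc9, so that their counts are uncertain.

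Mki67, Top2a and Cdk1, the usual markers of cycling cells, were under the filter in the cerebellum. Mki67 had 0.241 to 0.947 CPM (median 0.539) in controls, 0.512 to 1.07 (median 0.720) in cKO+/- and 0.566 to 1.56 (median 1.01) in cKO-/- mice, so that the knockouts were not lower than the controls. In a fit without a filter Mki67 changed by 0.41 ± 0.16 (SE, interval 0.09 to 0.74, adjusted p = 0.103). Top2a had 0.416 to 1.25 CPM in controls and 0.374 to 1.26 in cKO-/- mice (change 0.06, adjusted p = 0.842). Cdk1 had 0.265 to 0.672 and 0.233 to 0.635 CPM (change -0.02, adjusted p = 0.983). The sign of these last changes was not stable under other settings, as given in the closing section.

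All 15 genes under the filter rested on few counts, and in the fit without a filter 9 changes were above 0 and 6 below. By edgeR 0 of the 15 were called, 3 had an unadjusted p under 0.05, and 0 were called by DESeq2. Their median change was 0.07, with Ccnb1 (cyclin B1) lowest at -0.59 (interval -1.19 to -0.00, adjusted p = 0.197) and Ube2c, the ubiquitin-conjugating enzyme of the APC/C, highest at 0.51 (interval 0.11 to 0.91, adjusted p = 0.0981). Bub1 was at 0.46 (adjusted p = 0.203) and Cdca5 (sororin) at -0.41 (adjusted p = 0.444). The intervals of 11 of the 15 lay wholly above that of Cdc20. Those of Cdca5, Aurkb, Ndc80 and Ccnb1 reached it, so that for these 4 a fall as large as that of Cdc20 is not excluded.

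Summed over the 38 genes other than Cdc20, cerebellar libraries held 269.7 ± 11.6 CPM in controls, 262 ± 6.79 in cKO+/- and 255 ± 5.29 in cKO-/- libraries (SD, n = 6 each). The cKO-/- range of 248 to 261 CPM overlapped the control range of 256 to 288 CPM. The median of cKO-/- libraries was 0.959 of the control median, while for Cdc20 the ratio of means, not medians, was 0.365. Bub3 alone had a mean of 82.8 CPM in controls, so the sum is carried by abundant genes and says little about those at low levels. The 15 genes under the filter summed to 5.30 ± 0.983, 6.04 ± 0.896 and 6.46 ± 1.32 CPM, with means that were not lower in the knockouts. Per kilobase of exon, control levels ran from 0.0439 CPM for Cenpf to 40.3 CPM for Bub3, with Cdc20 at 1.71 and Mki67 at 0.0556 CPM.

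**Figure D4:**
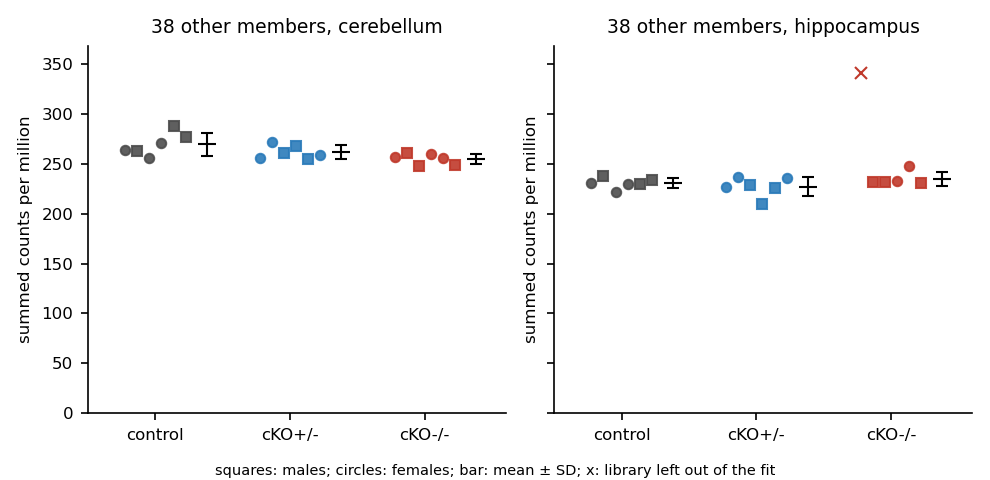
Summed CPM of the 38 genes other than Cdc20 (vertical axis) by library in control, cKO+/- and cKO-/- mice of the cerebellum (left) and hippocampus (right), with squares for males, circles for females, bars for mean ± SD and a cross for the library left out of the fit. Cerebellar cKO-/- libraries lie at 248 to 261 and controls at 256 to 288, and hippocampal means are 230.7, 227 and 235 in the 3 genotypes.

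In the hippocampus no change of Cdc20 with the number of Pogz alleles was detected. It had 0.570 to 0.920 CPM (median 0.802) in controls, 0.378 to 1.22 (median 0.708) in cKO+/- and 0.574 to 0.942 (median 0.695) in cKO-/- mice, on 9 to 39 counts per library, and the 3 groups overlapped throughout. As Cdc20 was under the filter there, its change comes from the fit without one, at -0.04 ± 0.12 (SE, interval -0.29 to 0.20, adjusted p = 0.888). Two-sided exact permutation tests gave p = 0.452 for cKO-/- against control (n = 5 and 6) and 0.522 for cKO+/- (n = 6 each), both 0.522 after adjustment over 4 tests. The interval excludes a fall as large as the lower limit of the cerebellar one, 0.57 on the log2 scale.

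Of the 28 genes tested in the hippocampus 1 was called, Nuf2, against 4.44% of all 14339 genes tested. It had 2.46 to 3.66 CPM (median 3.52) in controls, 3.19 to 4.12 (median 3.62) in cKO+/- and 3.41 to 5.70 (median 4.71) in cKO-/- mice. The cKO-/- libraries were mostly high, and 1 of them lay within the control range. The change of 0.25 ± 0.067 (SE, interval 0.11 to 0.39, adjusted p = 0.0428) lay close to the threshold. It was not called in 18 of 28 alternative fits, among them all 18 libraries (0.25, adjusted p = 0.0639), the term for the number range (0.27, 0.401) and, in 12 of 17 cases, the omission of 1 library: control Sample_1129, Sample_1170, Sample_1172, Sample_1190 or Sample_1192, cKO+/- Sample_933, Sample_938 or Sample_1189 or cKO-/- Sample_1219, Sample_1371, Sample_1379 or Sample_1385 (adjusted p 0.0520 to 0.134).

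None of the 28 genes had cKO-/- libraries wholly on one side of the controls, against 3.65% of all genes tested. The median change was 0.013, against 0.0017 over all genes tested. At an unadjusted p under 0.05 stood Nuf2, Espl1 (-0.14, adjusted p = 0.206) and Rrm2 (0.17, adjusted p = 0.215). Mki67, which marks the dividing progenitors of this tissue, had 3.35 to 6.45 CPM in controls, 3.23 to 4.74 in cKO+/- and 4.54 to 5.53 in cKO-/- mice (change 0.01, interval -0.15 to 0.18). Top2a had 1.82 to 2.48, 1.13 to 2.28 and 2.02 to 3.75 CPM (change 0.19, adjusted p = 0.323). For both, the cKO+/- median was the lowest and the groups overlapped. Mcm5 and Mcm7, called in the cerebellum, changed by 0.01 (interval -0.11 to 0.14) and -0.00 (interval -0.07 to 0.06) here, and Incenp by -0.07 (adjusted p = 0.489). The lowest tested change was that of Plk1, a mitotic kinase, at -0.16 (adjusted p = 0.325). Cdk1, from the fit without a filter, was at 0.27 (adjusted p = 0.370), and 0 of the 11 genes under the filter were called by edgeR or DESeq2, with 1 of them, Kif2c, at an unadjusted p under 0.05 (0.53, adjusted p = 0.178).

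The allele effect itself was then compared between tissues, as hippocampus minus cerebellum. Both tissues came from the same animals, but their libraries were fitted as independent, without an animal term, unless a block is named. By edgeR 0 of the 23 genes tested in both were called, against 1.49% of 13587 genes. DESeq2 called 0, and by edgeR 2 had an unadjusted p under 0.05. These were Mcm7 (difference 0.16, adjusted p = 0.195) and Mcm5 (0.18, adjusted p = 0.281). Without a filter, Cdc20 differed by 0.69 ± 0.14 (SE, adjusted p = 0.00679), and by 0.69 (adjusted p = 0.0257) with the animal as a block, with changes of -0.73 in the cerebellum and -0.04 in the hippocampus. Leaving out each animal gave 0.62 to 0.74, with adjusted p of at most 0.0317. With a term for the number range it was 0.58, and not called (adjusted p = 0.440). In the filtered fit that term cut calls over all 13587 genes from 203 to 10. Cdc20 was chosen for its known cerebellar fall, so its tissue difference is no independent evidence of that fall.

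Control mice showed where these genes are normally high. Between control hippocampus and cerebellum, scaled together, 22 of 28 tested genes differed, against 71.7% of 14209 genes: 12 were higher in the hippocampus and 10 in the cerebellum. Mki67, Cenpf and Cdc20 passed the filter only through the tissue where they are high, which favours a call. Without a filter 25 of the 39 genes were called, against 12063 of all 20616 genes in that fit. Mki67 had 5.09 ± 1.07 CPM in the hippocampus and 0.543 ± 0.238 in the cerebellum (SD, n = 6 each, log2 difference 3.22, adjusted p = 8.84e-08). Cdc20 went the other way, with 0.793 ± 0.126 against 2.95 ± 0.520 CPM (log2 difference -1.89, adjusted p = 1.66e-07). In both genes the ranges of the tissues did not overlap. These fits too had no animal term. With the animal as a block, the log2 difference of Cdc20 was -1.88 (edgeR adjusted p = 1.28e-05).

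Genes used with Mki67 as marks of dividing cells were also higher in the hippocampus, with Cenpf at 1.76, Top2a at 1.68 and Plk1 at 1.62 on the log2 scale. As given above, Cenpf, Top2a and Plk1 passed the filter only through the hippocampus. Also higher there were Cenpe, Kif11, Aurka, Espl1, Ccna2, Kif20a and Cdca8. The helicase subunits were split. Mcm6 was higher in the hippocampus (22.4 ± 3.56 against 6.16 ± 1.10 CPM, 1.86, adjusted p = 2.43e-08), while Mcm5 (6.56 ± 0.748 against 16.0 ± 0.960 CPM, -1.29, 9.80e-09), Mcm2 (-0.94, 5.94e-07), Mcm7 (-0.78, 1.97e-06) and Mcm4 (-0.70) were higher in the cerebellum, and Mcm3 differed by 0.04 (adjusted p = 0.804). Also higher in the cerebellum were Ccnb2, Mad2l1, Pcna, Bub3 and Incenp, from -0.74 to -0.21. Nuf2 (0.08, adjusted p = 0.539), Pttg1, Bub1b, Tpx2 and Rrm2 did not pass the test. Leaving out 1 control animal left 19 to 21 of the 22 calls.

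**Figure D5:**
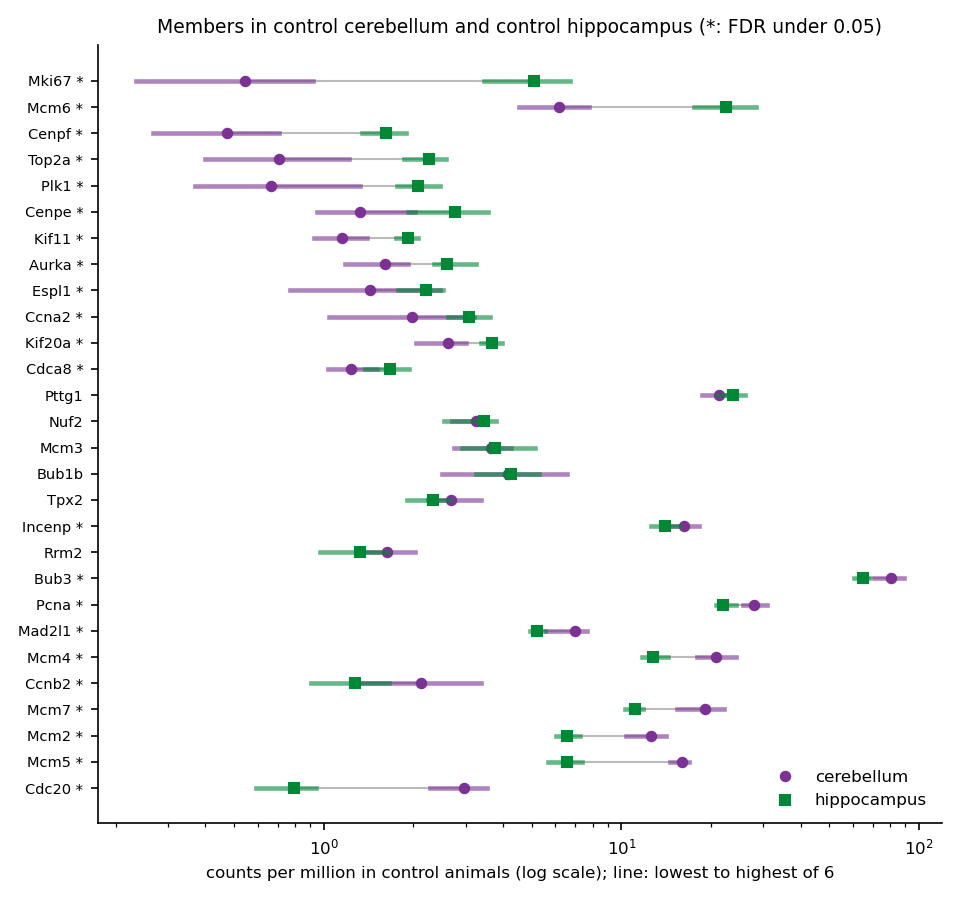
CPM on a log axis for 28 genes in control cerebellum (purple circles) and control hippocampus (green squares), as means with a line from the lowest to the highest of 6 mice, ordered by log2 difference and starred where called. Mki67 at the top is at 0.543 in the cerebellum and 5.09 in the hippocampus, and Cdc20 at the bottom is at 2.95 and 0.793.

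Outside the 39 genes, other genes around Cdc20 were tested in the cerebellum, where 13.7% of all genes tested were called by edgeR. Of 15 APC/C subunits and Cdh1 (Fzr1, the other activator), 0 were called by edgeR, 1 at an unadjusted p under 0.05 and 0 by DESeq2, with changes from -0.06 to 0.07. Of 6 tested APC/C inhibitors and checkpoint partners 0 were called by edgeR (1 at an unadjusted p under 0.05) and 1 by DESeq2, Zw10. Of 3 neuronal substrates of Cdc20-APC 0 were called by either tool and 0 had an unadjusted p under 0.05. Of 14 inner kinetochore genes 0 were called by edgeR (3 at an unadjusted p under 0.05) and 1 by DESeq2, Cenpt. Against 13.7% of all genes, counts of 0 in lists this short are no result about those lists.

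Among genes of G1 and of replication the shares called are to be read against the 13.7% of all genes tested. Of 15 G1 cyclins, kinases and E2F factors, E2f3 (0.28, adjusted p = 5.81e-05), Ccnd2 (0.34, 0.0194) and Ccnd3 (0.13, 0.0272) rose and Rbl1 (p107, -0.21, 0.0187) fell. Of 30 other replication factors, Prim1, the catalytic primase subunit (-0.31, adjusted p = 0.000124), Pold1, of polymerase delta (-0.23, 0.0116), Pola2, of polymerase alpha (-0.19, 0.0220), and the licensing factor Cdt1 (-0.27, 0.0329) fell, and Gmnn (geminin), the inhibitor of Cdt1, rose (0.22, 0.0323). The median over the 30 was -0.060. Cdkn1a (p21) fell (-0.30, 0.0113), 1 of 5 CDK inhibitors, Tfdp1 (-0.14, 0.0207) was called down of 8 DREAM and MuvB genes, and Ncapd3 (-0.19, 0.0290) of 16 cohesin and condensin genes. The 5 of 30, 1 of 8 and 1 of 16 called are near or below the share of all genes and are no result about those lists. E2f3 and Prim1 were called in every alternative fit run. With the term for the number range the other 10 were not (adjusted p 0.199 to 0.438), with Ccnd2 at 0.17, Ccnd3 at 0.066 and Pold1 at -0.15. In mice within the range Pold1 was at -0.11 (adjusted p = 0.337), Ncapd3 at -0.11, Cdt1 at -0.084 and Ccnd3 at 0.060. With cKO-/- Sample_1385 left out Ccnd2, Ccnd3, Rbl1, Tfdp1, Pola2, Gmnn, Cdt1 and Ncapd3 missed the threshold (adjusted p 0.0524 to 0.0879), and 1 or more of them did so without control Sample_1129, Sample_1155, Sample_1172, Sample_1190 or Sample_1192 or cKO-/- Sample_936, Sample_1371 or Sample_1379.

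In the hippocampus 2 of 16 G1 genes fell, E2f1 (-0.19, adjusted p = 0.0269) and Ccnd1 (-0.14, 0.0461), and of 16 cohesin and condensin genes Ncapd2 fell (-0.13, 0.0247) and Rad21 rose (0.10, 0.0449). None of these 4 was called with all 18 libraries (adjusted p 0.0527 to 0.836). By edgeR 0 of 30 other replication factors (1 at an unadjusted p under 0.05, 0 by DESeq2) and 0 of 15 APC/C subunits (2 and 0) were called. These counts are to be read against the 4.44% of all genes tested that were called in the hippocampus. The 0 of 30 and 0 of 15 are no result about those lists.

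Markers of other cell types moved with genotype in part. In the cerebellum 5 of 6 meningeal and 3 of 6 microglial markers were called up, against 13.7% of all genes tested. The meningeal markers summed to 190 to 263 CPM in controls and 271 to 515 CPM in cKO-/- mice. The microglial markers summed to 109 to 117 and 110 to 184 CPM. With the term for the number range the 3 microglial markers and 2 of the 5 meningeal ones, Dcn and Slc6a13, were not called (adjusted p 0.233 to 0.779), nor was Dcx (0.0556). Of 8 progenitor and immature neuron genes Dcx rose (0.37, adjusted p = 0.00460), and of 6 markers of oligodendrocyte precursors, which can divide in the adult, 0 were called by edgeR (4 at an unadjusted p under 0.05, median 0.19) and 1 by DESeq2, Pdgfra. Of 8 cerebellar markers 0 were called (1 at an unadjusted p under 0.05, 0 by DESeq2). The 1 of 8, 0 of 6 and 0 of 8 called by edgeR are near or below the share of all genes and are no result about those lists. Without the 3 libraries high in choroid plexus markers the same 5 genes of mitosis and replication were called, and with choroid plexus and brainstem scores as covariates Cdc20 was called and the other 4 were not, although Mcm7 (-0.17), Incenp (-0.13) and Nuf2 (0.30) changed by about as much as without them and Mcm5 by -0.13. With these scores 918 of all 14027 genes were called, against 1916 without them. The part of the other cell types in the smaller changes was not tested. In the hippocampus the summed level of 6 endothelial markers was 103 to 122 CPM in controls and 121 to 191 CPM in cKO-/- mice, with 3 called up, and 2 of 8 hippocampal markers fell, Wfs1 (-0.50) and C1ql2 (-0.45), against 4.44% of all genes tested. With all 18 libraries the 3 endothelial markers (adjusted p 0.216 to 0.463) and C1ql2 (0.0888) were not called.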

How the data were processed

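The authors aligned reads from poly(A) RNA with STAR to the build named mm9 in the submitters' notes and deposited read counts per gene. The gene coordinates in the tables match GRCm38 instead (97.2% of gene starts within 1000 bases of RefSeq GRCm38.p6, 4.83% for NCBIM37). Counts were scaled by TMM and fitted with edgeR 4.0.16 (quasi-likelihood, R 4.3.3) on sex and the number of alleles lost, over genes above 1 CPM in at least 6 libraries, with Benjamini-Hochberg adjustment at 0.05. Genes under the filter, Cdc20 in the hippocampus among them, were taken from a fit without a filter, which differs from the planned test. The steps were tested on simulated data. Alternatives included DESeq2 1.42.0, other scaling, thinning, number range, covariates and single omissions. The genes and lists were chosen with earlier results of these data known. Named genes are those called, each role's members and up to 4 per list, with Cdt1 named after its values were seen. The labels do not say that replicates came from separate litters. Intervals cover 95%. Both tissues came from the same 18 animals by label, and the correlation of an animal's deviations between tissues was -0.5 to 0.344 (median 0.165). Some neighbouring genes of Cdc20 are not reported here.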

Additional observations from a re-analysis of the deposited data

Results flagged for a closer look

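Cdc20 changed with Pogz alleles in the cerebellum and not detectably in the hippocampus, and the difference itself was 0.69 on the log2 scale in the fit without a filter (edgeR adjusted p = 0.00679). That difference was not called with a term for the number range. In the hippocampus 1 control library stood apart for Nuf2, that of Sample_1170, with 2.465 CPM against 3.26 to 3.66 CPM in the other 5 controls. The summed level of the 38 genes other than Cdc20 was 248 CPM in the hippocampal cKO-/- library of Sample_1385, against 231 to 233 CPM in the other 4. Of 54 groups of libraries checked for such a value 2 held one, and chance alone gives about 5%. In the hippocampal library left out of the fit (cKO-/- Sample_1160), 20 of the 39 genes lay above every control and 9 below, and Cdc20 was at 1.21 CPM. In the other 5 cKO-/- libraries 6 to 14 genes lay above every control and 2 to 9 below, and in single controls, each against the other 5, 5 to 8 above and 4 to 10 below. Among cKO+/- libraries Sample_1120 had 12 above and 9 below, and Sample_1433 had 3 above and 13 below.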

How the results depend on the processing

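The cerebellar fall of Cdc20 was called in all 29 alternatives, from -0.77 to -0.70, while the count of called genes there, 5, was 3 after thinning to the smallest total, 1 with a term for animals outside the control number range, 1 within that range, 1 with choroid plexus and brainstem scores, and 1 to 5 with single libraries left out. In the hippocampus the count of 1 was 0 without a filter, after thinning, with either covariate, within the range and with all 18 libraries, and 0 to 1 with single libraries left out. Calls over all cerebellar genes fell as well, from 1916 to 308 with the range term, 238 within the range and 918 with the scores. In the hippocampus they fell from 636 to 68, 18 and 497. With all 18 libraries the hippocampal median was 0.054 and Cdc20 turned to 0.027. The tissue difference went from 0 genes to 1, Cdc20, without a filter, and Cdc20 was not called there once a term for the number range was added. With the animal as replicate block the tissue difference had 0 genes and the control tissues 22, and no call on these counts changed. Some signs turned. Cerebellar Top2a was -0.14 after thinning, -0.062 with the range term, -0.098 within the range, -0.027 without cKO-/- Sample_1385 and -0.015 without Sample_1371 (-0.027 to 0.18 over single omissions). Cerebellar Cdk1 was 0.018 after thinning, 0.040 without control Sample_1190, 0.066 without cKO-/- Sample_1219 and 0.060 without Sample_1371 (-0.076 to 0.066 over single omissions). Hippocampal Mki67 was -0.042 within the range, -0.019 with all 18 libraries, -0.023 without control Sample_1170, and -0.016, -0.0052 and -0.011 without cKO-/- Sample_1385, Sample_1219 and Sample_1371 (-0.023 to 0.075 over single omissions). Hippocampal Top2a was -0.020 within the range, and cerebellar Slc6a13, a meningeal marker called at 0.34, was -0.051 there. The cause was not tested. Counts of 3 or fewer, at most 0.170 CPM, limit the lowest genes. The term for the number range and the outlier omission were planned for the allele fits and the filtered tissue difference. The fits without libraries high in choroid plexus markers were chosen after seeing the data. Also not planned were the alternatives for the unfiltered tissue difference of Cdc20, its range term among them, and those for summed CPM.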
